A study of Ginkgo biloba with 2 samples.

Results

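The enzymes of glycolysis and of alcoholic fermentation were followed in mature ovules and fully expanded leaves of *Ginkgo biloba*. Members were chosen by annotation and not by their values: the description of the best BLAST hit named 1 of these enzymes, and the gene ontology (GO) component lacked the word chloroplast. The rule gave 32 of 64515 reference sequences. Both tissues were collected from female trees in April, frozen in liquid nitrogen and extracted by a modified CTAB method, and the labels give no treatment or genotype. There was 1 library per tissue, and the depth was 4.58 M (M, 1000000) mapped reads for ovule against 4.25 M for leaf. A read counted only where it mapped uniquely, and the labels do not say how many trees or ovules went into each. Every difference below therefore compares 2 libraries, has no replicate check and carries no p-value. The tissue labels were checked against marker genes. Rubisco activase, the chaperone of the enzyme that fixes carbon, had 280 ovule and 5084 leaf reads, and sequences described as AINTEGUMENTA, a regulator of ovule growth, had 282 and 0. Light-harvesting antenna proteins were read in both tissues, 6329 times for ovule against 18114 times for leaf.

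Glycolysis splits glucose phosphates into pyruvate in the cytosol and yields ATP and NADH, and plants run a second copy of many of its steps in plastids. When oxygen is short, pyruvate decarboxylase turns pyruvate into acetaldehyde and alcohol dehydrogenase reduces that to ethanol, which returns NAD+ to glycolysis. In developing seeds these enzymes are known to supply carbon skeletons for storage products, and the inside of bulky seed tissue can be low in oxygen.

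The members took more of the ovule library than of the leaf library. They held 8849 ovule reads, 0.193% of the library (exact 95% interval, 0.189 to 0.197), and 4107 leaf reads, 0.0967% (0.0938 to 0.0997). Scaled to library size this was a 1.996-fold difference (95% counting interval, 1.92 to 2.07). A bulk library cannot tell apart more cells of a type from more RNA per cell. The intervals cover counting error in these libraries only. Reads were uneven among the members. Unigene24048, a glyceraldehyde-3-phosphate dehydrogenase, held 50.0% of the reads of the module, and the 5 most-read members held 92.8%. Without Unigene24048 the ovule excess was 1.55-fold (1.48 to 1.63). At the other end, 17 members had under 20 reads over both libraries.

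Sequences were called higher in a tissue at a 2-fold difference, measured as a log2 ratio of RPKM (reads per 1000 bases and per 1000000 reads) with 0.5 added to each value, which understates weak sequences. A member entered the calls if its RPKM reached 1 in either library, which 26 of the 32 did. Of those, 10 were called higher in ovule (38.5%), 5 higher in leaf (19.2%) and 11 were under 2-fold. Over all 56768 sequences past the filter the shares were 27.3% and 35.1%. The background depended on read depth, so the better-read sequences were also compared. Among the 15 members with at least 20 reads, 5 were called higher in ovule and 2 in leaf, and over all sequences of that depth the shares were 33.9% and 20.7%. The members' shares, 33.3% and 13.3%, were at or below these. With a counting interval that also excluded 1, the calls were 6 and 3 of the 26, against 17.3% and 13.6% of all sequences past the filter. Those shares are not matched in depth. The median log2 ratio of the 26 was 0.63, or 0.52 with empty libraries set at 3 reads, and that of all sequences was -0.10, or 0.00. Among sequences with at least 20 reads the medians were 0.35 for members and 0.39 for all.

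**Figure D1:**
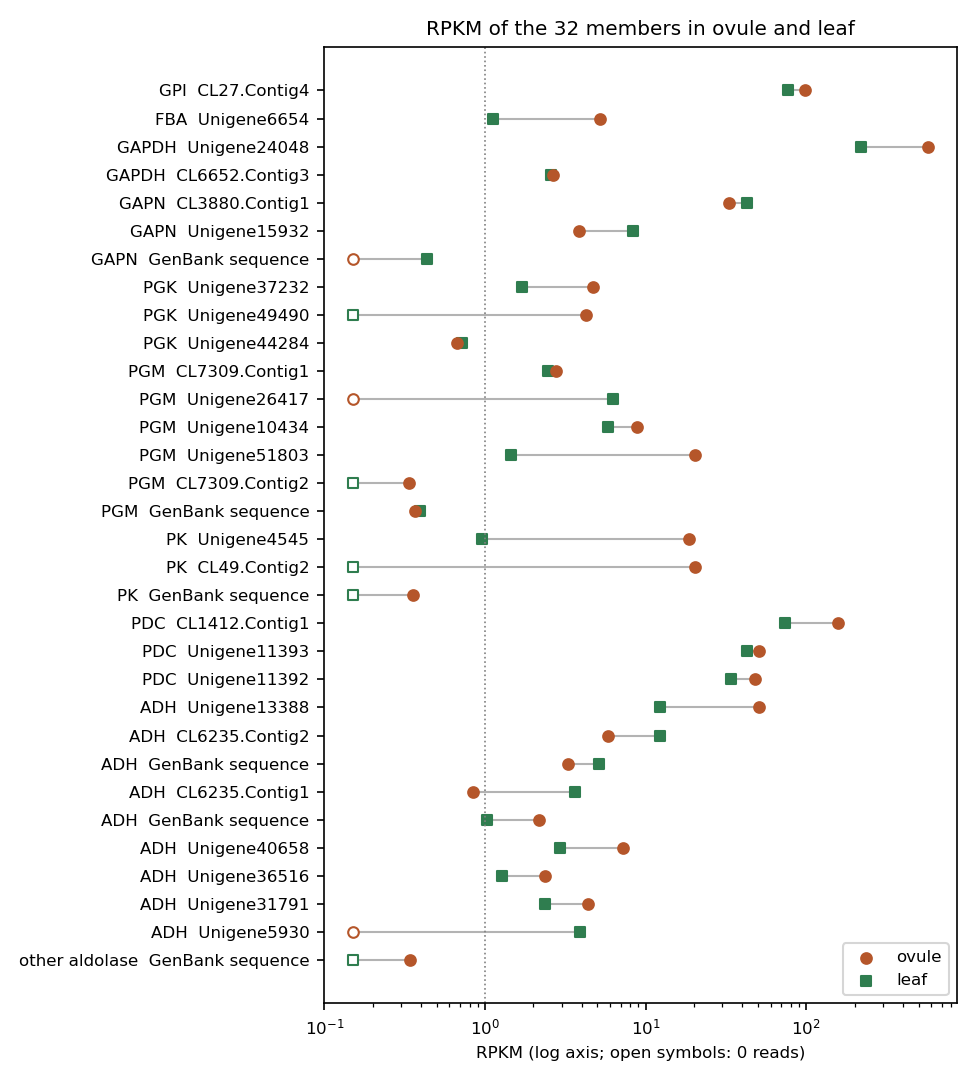
RPKM (log axis) of each of the 32 members in ovule (circles) and leaf (squares), ordered along the pathway, with open symbols at the left for 0 reads and a dotted line at an RPKM of 1. GPI is glucose-6-phosphate isomerase, FBA fructose-bisphosphate aldolase, GAPDH and GAPN the phosphorylating and non-phosphorylating glyceraldehyde-3-phosphate dehydrogenases, PGK and PGM phosphoglycerate kinase and mutase, PK pyruvate kinase, PDC pyruvate decarboxylase and ADH alcohol dehydrogenase. Unigene24048 stood highest in both libraries, at 574 and 218.

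The first steps of the pathway were thinly represented. Glucose-6-phosphate isomerase, which converts glucose 6-phosphate to fructose 6-phosphate, had a single member, CL27.Contig4, described as cytosolic. It had 963 ovule and 700 leaf reads, an RPKM of 98.1 and 76.9, and reads covered 95.94% and 93.98% of its bases. The ovule level was 1.27-fold higher (1.16 to 1.41), under the 2-fold line. Its log2 ratio was 0.35, and 0.20 under TMM scaling, an alternative scaling of library size. Fructose-bisphosphate aldolase, which splits the 6-carbon sugar, had 1 member with 10 and 2 reads (Unigene6654). Its ratio, 4.63-fold toward ovule, had an interval that included 1 (0.987 to 43.5). No member stood for phosphofructokinase, the committed step, for triosephosphate isomerase or for enolase, because each sequence with those descriptions carried a chloroplast component.

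Glyceraldehyde-3-phosphate dehydrogenase, which makes the first NADH of the pathway, held the member with the highest RPKM. Unigene24048 had 4796 ovule and 1687 leaf reads, an RPKM of 574 and 218. It was 2.63-fold higher in ovule (2.49 to 2.79), and was still called at a log2 ratio of 1.24 under TMM scaling. Its deposited GO terms place it in plastid and membrane and name primary root, tapetal layer and pollen development. It stayed in the module because its component says plastid and not chloroplast. In Arabidopsis, plastids hold glycolytic isoforms of this enzyme, distinct from the photosynthetic form, that are known to act in root and pollen development. The second member, CL6652.Contig3, is described as cytosolic. It had 19 and 17 reads, an RPKM of 2.67 and 2.57, and the difference was not detectable at this depth (1.04-fold, 0.510 to 2.12). Those reads covered only 5.21% and 5.33% of its 1556 bases. Of the 10 sequences described as phosphorylating glyceraldehyde-3-phosphate dehydrogenases, members or not, Unigene24048 alone had more than 19 reads in a library.

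The non-phosphorylating, NADP-dependent glyceraldehyde-3-phosphate dehydrogenase bypasses the ATP-forming kinase step and yields NADPH. Its main sequence, CL3880.Contig1, had 318 ovule and 377 leaf reads, an RPKM of 33.2 and 42.5, with 98.13% and 98.42% of its bases covered. It was 1.28-fold higher in leaf (1.10 to 1.49). The phosphorylating enzyme Unigene24048 thus lay above 1 and this enzyme below 1 in the ratio of ovule over leaf, with counting intervals that did not meet. Unigene15932, with 4 and 8 reads, was called higher in leaf at a log2 ratio of -1.02, but its counting interval included 1. A GenBank sequence had 0 and 1 reads.

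Phosphoglycerate kinase, which forms ATP, had 3 members with at most 6 reads in a library. Unigene37232 had 6 and 2 reads and Unigene49490 had 3 and 0, and both were called higher in ovule on these few reads. Unigene44284, described as chloroplastic but without a GO chloroplast component, had 1 read in each library. Phosphoglycerate mutase, which moves the phosphate for the enolase step, had 6 members that pointed both ways. CL7309.Contig1, of the cofactor-independent type found in plants, had 28 and 23 reads, 1.13-fold apart with an interval that included 1 (0.627 to 2.05). Its partner CL7309.Contig2, with the same best BLAST hit, had 3 and 0. Among those described only as putative mutases, Unigene26417 was not read in ovule and had 33 leaf reads, at least 11.9-fold more in leaf. Those 33 reads covered 58.8% of its bases, and its GO terms name plastid and methyltransferase activity beside the mutase. Unigene51803 went the other way, with 15 and 1 reads, 13.9-fold higher in ovule (2.14 to 585). Unigene10434 had 18 and 11. For Unigene51803 and Unigene10434 the only GO function term was catalytic activity, not that of the mutase. Summed over the 6, the counts were 65 and 69, with no difference detectable at this depth (1.15-fold toward leaf, 0.805 to 1.63).

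Pyruvate kinase, which forms pyruvate and ATP, held the largest log2 ratios toward ovule among the 26 members past the filter. Unigene4545, described as a cytosolic isozyme, had 21 ovule reads and 1 leaf read, 19.5-fold higher in ovule (3.13 to 805). CL49.Contig2, also described as cytosolic, had 21 and 0, at least 6.49-fold more in ovule. In ovule these reads covered 90.65% and 86.67% of the bases. Both are short fragments, of 246 and 225 bases, so their level rests on few reads. A contig of the same cluster as CL49.Contig2, CL49.Contig4, fell outside the members and is given below with the sequences found by GO term. The third member, from GenBank, had 1 and 0.

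The members with at least 20 reads are compared in the plot of ratios. Those with over 100 reads in a library had narrow counting intervals and ratios between 1.28-fold toward leaf and 4.16-fold toward ovule, and the wider ratios of the pyruvate kinase and mutase members rested on few reads.

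**Figure D2:**
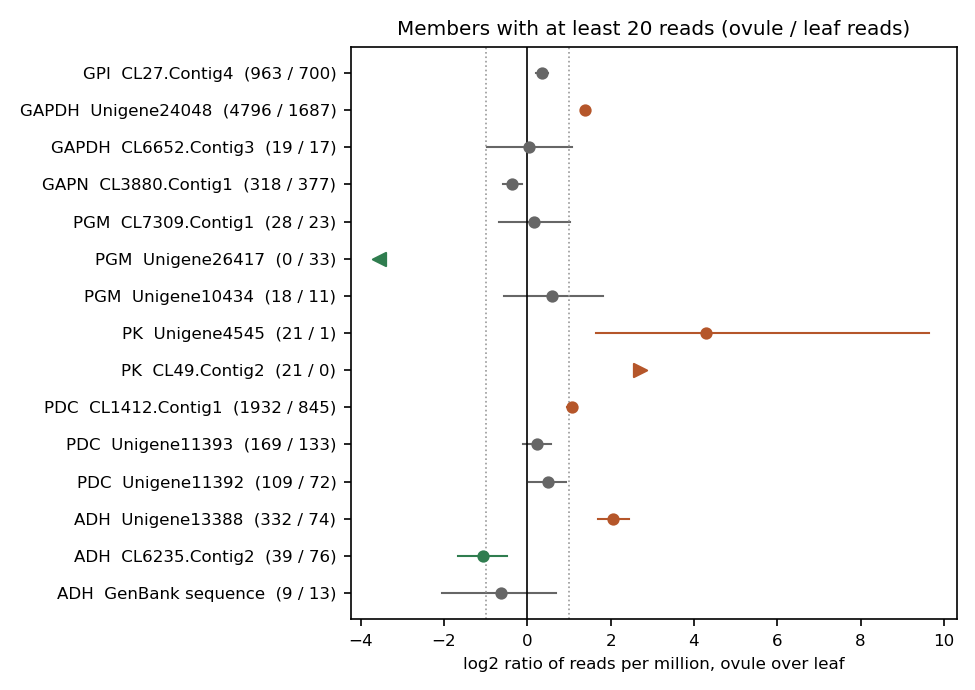
Log2 ratio of reads scaled to library size, ovule over leaf, for the 15 members with at least 20 reads, with 95% counting intervals as bars, arrowheads for lower bounds against 3 reads, and ovule and leaf reads in brackets. Colour marks calls (brown higher in ovule, green higher in leaf, grey under 2-fold) and dotted lines stand at 2-fold. Intervals were narrow for Unigene24048 and CL1412.Contig1 and wide for the pyruvate kinase Unigene4545.

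The fermentation branch was well represented by pyruvate decarboxylase. CL1412.Contig1 had 1932 ovule and 845 leaf reads, an RPKM of 157 and 74.2, and was read over 93.22% and 94.11% of its 2684 bases. It was 2.12-fold higher in ovule (1.95 to 2.30). That call was lost under TMM scaling, where the log2 ratio fell from 1.08 to 0.93. Its GO terms include the response to hypoxia. The other members were closer to level. Unigene11393, with the same best BLAST hit, had 169 and 133 reads, an RPKM of 50.5 and 42.9, and a ratio of 1.18 with an interval that included 1 (0.933 to 1.49). Unigene11392 had 109 and 72 reads, an RPKM of 47.8 and 34.1, and was 1.40-fold higher in ovule (1.03 to 1.92). Together the 3 sequences were 1.95-fold higher in ovule (1.81 to 2.10), and 1.26-fold (1.05 to 1.51) without CL1412.Contig1. The intervals of CL1412.Contig1 and of each of the other two did not meet, so within these libraries the copies did not share 1 ratio. In leaf the enzyme was still among the better-read members, with 1050 reads in all.

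Alcohol dehydrogenase, the last step of fermentation, looked similar in sum but was made of unlike sequences. Its 9 members had 410 ovule and 192 leaf reads, 1.98-fold higher in ovule (1.66 to 2.36). This sum turned to 1.63-fold higher in leaf (1.22 to 2.20) without 1 member, Unigene13388. That sequence, described as a short-chain alcohol dehydrogenase, had 332 and 74 reads, an RPKM of 50.7 and 12.2, and was 4.16-fold higher in ovule (3.22 to 5.42). Its deposited function term is a steroid-type diol dehydrogenase activity and not that of the ethanol-forming enzyme.

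A group of 4 alcohol dehydrogenase members are described as sinapyl alcohol dehydrogenases of ginkgo, a name used for enzymes of lignin monomer synthesis. They share 1 best BLAST hit. They had 51 ovule reads and 97 leaf reads, a leaf excess of 2.05-fold (1.45 to 2.94). CL6235.Contig2 had 39 and 76 reads, an RPKM of 5.82 and 12.2, and was 2.10-fold higher in leaf (1.41 to 3.18). CL6235.Contig1 had 3 and 12 reads and Unigene5930 had 0 and 5, both called higher in leaf, while a GenBank copy had 9 and 4 and was under the call line. Only 1 of the 9 members, Unigene40658, carried the GO function of NAD-dependent alcohol dehydrogenase, and it also carried the response to hypoxia. It had 8 ovule and 3 leaf reads, 2.47-fold with an interval that included 1 (0.593 to 14.5). The remaining members, Unigene36516, Unigene31791 and a GenBank sequence with a 2-alkenal reductase term, had 2 to 13 reads in each library and were under 2-fold. The direction of ethanol-forming alcohol dehydrogenase was thus not detectable from the members. The last of the 32 members, a GenBank sequence matched through the word aldolase, is described as a 2-dehydro-3-deoxyphosphoheptonate aldolase of the shikimate pathway and had 1 and 0 reads.

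The members were further described by what the rule did not use. Assembled sequences made up 26 of the 32, and 6 came from GenBank. Lengths ran from 155 to 2684 bases with a median of 599. The 32 members had 27 distinct best BLAST hits, and 3 hits were shared by 8 members, so members can be fragments or copies of 1 gene. No GO component was recorded for 15 of them, which therefore passed the chloroplast rule by default. Cytosol was recorded for 9 and plasma membrane for 5. The GO process glycolysis was attached to 5 members, the response to cadmium to 5 and the response to hypoxia to 2, CL1412.Contig1 and Unigene40658. Coverage separated well-read sequences from those with reads piled on a small part. CL7309.Contig1 had a mean depth of 0.620 read bases per base in ovule and 14.37% of its bases covered, whereas Unigene36516 had a lower depth, 0.533, and 42.03% covered. CL6235.Contig2 had a depth of 2.55 in leaf over 25.31% of its bases. Since only uniquely mapped reads were counted, a contig that shares most of its sequence with another can receive reads on its distinct part alone, and the split of reads among contigs with a common CL number is uncertain.

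**Figure D3:**
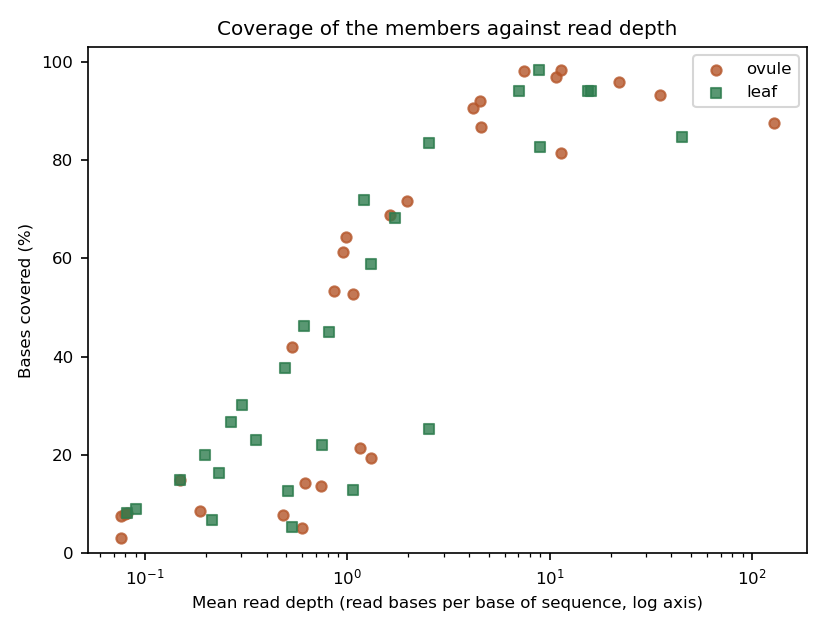
Percent of bases covered against mean read depth (reads of 49 bases times their number, over sequence length, log axis) for each member with reads, in ovule (circles) and leaf (squares). Most members lie on 1 rising band, and a few, such as CL6235.Contig2 in leaf at 25.31%, lie well below it.

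The chloroplast rule set aside 29 sequences matched by the same words, of which 4 are described as cytosolic and 6 as chloroplastic. Another 2, a 3-phosphoglycerate dehydrogenase of serine synthesis (Unigene25026) and a rhamnonate aldolase (CL3301.Contig1), stand outside glycolysis. All 29 together had 7226 ovule and 2685 leaf reads, 2.49-fold higher in ovule (2.39 to 2.61), against 1.996-fold for the members. Of the 22 past the filter, 11 were called higher in ovule (50.0%) and 6 in leaf (27.3%), against 27.3% and 35.1% of all sequences. Over all sequences with at least 20 reads the shares were 33.9% and 20.7%. Of the 29, however, 14 had under 20 reads, so that second background is not matched to them in depth. Enolase, which makes phosphoenolpyruvate, was represented by Unigene17419 with 1771 and 527 reads, 3.11-fold higher in ovule (2.82 to 3.44). The cofactor-independent phosphoglycerate mutase CL5949.Contig3 had 2814 and 873 reads, 2.99-fold more abundant in ovule (2.77 to 3.23), against the 65 and 69 reads of the mutase members. A cytosolic triosephosphate isomerase (Unigene13318), which interconverts the 3-carbon sugars, had 87 and 36 reads a 2.24-fold excess in ovule (1.502 to 3.40) whose log2 ratio fell to 0.98 under TMM scaling. Pyruvate kinase was 4.92-fold higher in ovule over 7 sequences (4.19 to 5.82), and all 6 past the filter were called higher in ovule. Phosphoglycerate kinase leaned to leaf, with 170 and 202 reads (1.28-fold, 1.04 to 1.58). Phosphorylating glyceraldehyde-3-phosphate dehydrogenase had 2 ovule and 40 leaf reads over 8 sequences, 21.6-fold more in leaf (5.598 to 184), opposite to Unigene24048. CL6652.Contig1, a contig of the same cluster as the member CL6652.Contig3, had 1 and 18 of these reads.

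A description-based rule also missed sequences whose best hit is an unnamed conifer protein. A further 56 sequences carried the GO function term of an enzyme of glycolysis, ethanol or lactate formation, had no chloroplast component and were not described as such, and 43 of the 56 had a hit called unknown. They held 9973 ovule and 6747 leaf reads, more than the members themselves. Scaled to library size they were 1.37-fold higher in ovule (1.33 to 1.41), and 2.13-fold (2.05 to 2.21) without the most-read, Unigene22536. Of the 47 past the filter, 22 were called higher in ovule (46.8%) and 9 in leaf (19.1%), against 27.3% and 35.1% of all sequences. Only 17 of the 56 had under 20 reads, and among all sequences with at least 20 reads the shares were 33.9% and 20.7%, so the leaf share was near that background. Pyruvate kinase was 4.10-fold higher in ovule over 10 sequences (3.73 to 4.50). Among these CL1106.Contig3 had 833 and 54 reads, 14.3-fold apart (10.8 to 19.2), while CL1106.Contig2, from the same cluster, had 339 and 233, 1.35-fold (1.14 to 1.60). The most-read of the 10, CL49.Contig4, is from the cluster of the member CL49.Contig2. It held 48.3% of their reads, and without it the ratio was 3.82 (3.36 to 4.35). Sequences with the term of ATP-dependent phosphofructokinase were 2.83-fold higher in ovule (2.51 to 3.18), and 5 of 7 past the filter were called in ovule and 0 in leaf. The 2 most-read, Unigene24407 and CL6147.Contig2, also carry the pyrophosphate-dependent term, and Unigene24407 is described as that enzyme. Without Unigene24407 the ratio was 2.69 (2.30 to 3.16). Next came Unigene1022, with the ATP-dependent term and not the other, at 213 and 157 reads (1.26-fold toward ovule, 1.02 to 1.55). The term of the pyrophosphate-dependent enzyme, which some of the same sequences carry, gave 1.79-fold (1.609 to 1.997) over 7 sequences, with 4 called in ovule and 2 in leaf. Of these Unigene24407 had 537 and 166 reads, and without it the ratio was 1.22 (1.06 to 1.40). Unigene21264 had 51 and 200 reads, 4.23-fold higher in leaf (3.10 to 5.88). Enolase was 2.87-fold higher in ovule (2.57 to 3.22), with Unigene24225 at 1077 and 315 reads. Phosphoglycerate mutase CL4056.Contig1 had 652 and 149 reads, 4.05-fold more abundant in ovule (3.39 to 4.88). Aldolase was level in sum, at 1045 and 956 reads (1.01-fold toward ovule, 0.927 to 1.11). Of its 7 sequences past the filter 0 were called in ovule and 2 in leaf, and the median log2 ratio was -0.56. The most-read, Unigene24879 with 391 and 357 reads, is described as an uncharacterized protein and also carries dehydrogenase terms. Phosphoglycerate kinase leaned to leaf (1.25-fold, 1.09 to 1.45).

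The fermentation enzymes found by GO term split by copy. NAD-dependent alcohol dehydrogenase had 2033 ovule and 3143 leaf reads over 5 sequences, 1.67-fold higher in leaf (1.58 to 1.77). Unigene22536 carried this, with 1379 and 3004 reads, an RPKM of 202 and 475, and without it the other 4 sequences were 4.36-fold higher in ovule (3.62 to 5.27). CL3157.Contig1, for example, had 368 and 30 reads, 11.4-fold apart (7.83 to 17.1). Pyruvate decarboxylase by GO term had 149 and 121 reads, 1.14-fold apart with an interval that included 1 (0.892 to 1.46). Lactate dehydrogenase, which regenerates NAD+ by making lactate, had 480 and 134 reads over 3 sequences, 3.32-fold higher in ovule (2.735 to 4.05).

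**Figure D4:**
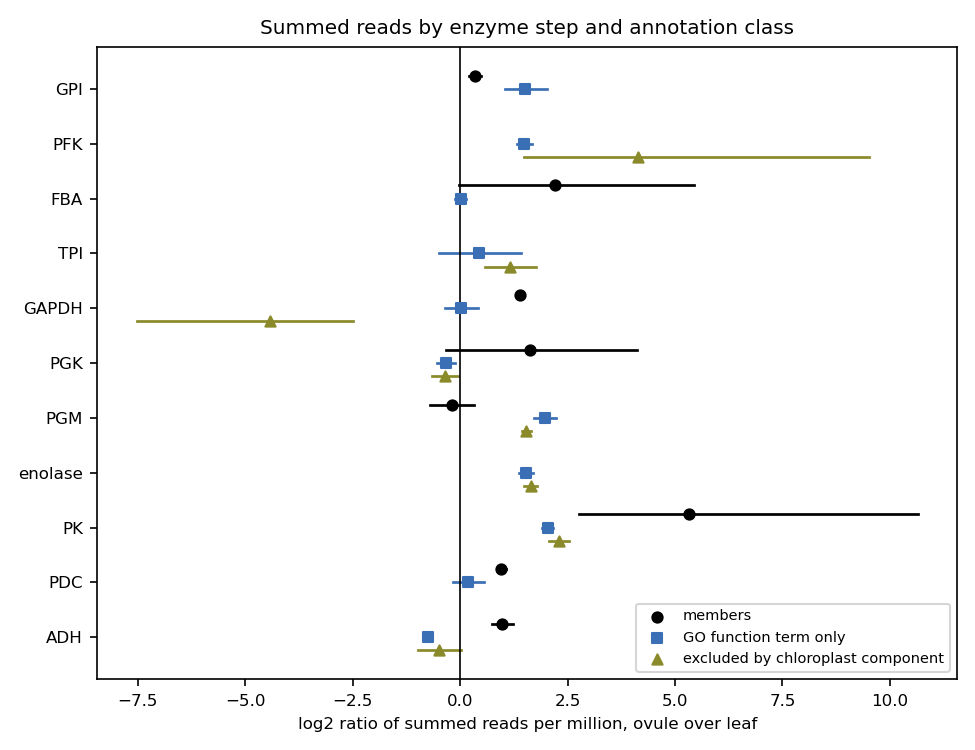
Log2 ratio of summed reads scaled to library size, ovule over leaf, for each enzyme step in 3 annotation classes: the members, sequences with the GO function term alone, and sequences set aside for a chloroplast component, with 95% counting intervals. PFK is phosphofructokinase, TPI triosephosphate isomerase, and the other abbreviations are as in the plot of RPKM. For PFK the GO function term is the ATP-dependent one, which some sequences carry together with the pyrophosphate-dependent term. Pyruvate kinase lay toward ovule in all 3 classes, at 39.8-fold, 4.10-fold and 4.92-fold, and glyceraldehyde-3-phosphate dehydrogenase and alcohol dehydrogenase did not point 1 way.

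Pyruvate kinase was the only step with sequences in all 3 annotation classes whose counting intervals all lay on the ovule side, at 39.8-fold for the members (43 and 1 reads, 6.78 to 1610), 4.10-fold and 4.92-fold. The members and the sequences found by GO term alone both held contigs of the CL49 cluster, so these classes can share a gene. Enolase lay toward ovule in both classes that held it. So did glucose-6-phosphate isomerase, at 1.27-fold for the member and 2.87-fold (2.08 to 4.03) by GO term, where contigs of the member's CL27 cluster were included. Phosphofructokinase did too, at 2.83-fold by the ATP-dependent term, though the 2 most-read of these also carry the pyrophosphate-dependent term. A phosphofructokinase set aside, with 19 and 1 reads, stood at 17.6-fold (2.80 to 731). For phosphoglycerate mutase the interval of the members included 1, while the other 2 classes lay toward ovule. Sequences with the GO function and a chloroplast component, not drawn, also differed among copies. Of 3 such triosephosphate isomerases, a GenBank sequence had 128 ovule and 0 leaf reads, at least 39.5-fold more in ovule. The other two lay toward leaf, CL3252.Contig1 with 2 and 81 reads (43.7-fold, 11.7 to 367) and Unigene6506 with 84 and 247 (3.17-fold, 2.47 to 4.12). Among 8 such pyruvate kinases the sum was 1.85-fold higher in ovule (1.70 to 2.02), and it turned to 3.06-fold higher in leaf (2.57 to 3.65) without Unigene16225, which had 1437 and 308 reads. Among 5 aldolases Unigene24090 had 8893 and 1315 reads, 6.27-fold more abundant in ovule (5.91 to 6.64), whereas CL2802.Contig1 had 698 and 3345, 5.17-fold higher in leaf (4.77 to 5.62). The component of Unigene24090 lists cytosol beside chloroplast, so it does not settle where the enzyme acts, and that of CL2802.Contig1 lists chloroplast alone. The phosphoglycerate kinase CL2776.Contig1 had 2395 and 5627 reads and lay 2.54-fold toward leaf (2.42 to 2.66).

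Other genes around the pathway were listed by description, with 13 lists of which 4, among them lactate dehydrogenase and pyruvate, phosphate dikinase, matched nothing. The lists held 46 sequences, 18 of them with a chloroplast component. Of the 44 past the filter, 11 were called higher in ovule, 17 in leaf and 16 were under 2-fold. These shares, 25.0% and 38.6%, were near those of all sequences. Their summed reads were nevertheless 2.27-fold higher in ovule (2.19 to 2.36). Hexokinase, which phosphorylates glucose, had 1 of 10 sequences called in ovule and 5 in leaf. The counting interval excluded 1 for the ovule call and for 2 of the leaf calls. By summed counts the list leaned to ovule instead, by 1.41-fold (interval 1.23 to 1.62), with 546 ovule against 358 leaf reads. The most-read hexokinase, CL5240.Contig2, accounted for 234 and 151 of them. Fructokinase (Unigene10735) had 710 and 423 reads, 1.56-fold more abundant in ovule (1.38 to 1.76). Phosphoglucomutase, which links glycolysis to starch and sucrose, was level in its most-read sequence Unigene12132, with 1488 and 1386 reads and 1.01-fold toward leaf (0.934 to 1.08).

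Sequences of the pyruvate dehydrogenase complex, which feeds pyruvate into acetyl-CoA, had 2659 and 504 reads, 4.89-fold more abundant in ovule (4.44 to 5.39). Nearly all were from the acetyltransferase subunit, Unigene19303 with 2111 and 372 and Unigene16917 with 532 and 118. A GenBank sequence of the E1 beta subunit had 16 and 13, with an interval that included 1 (1.14-fold, 0.514 to 2.58). Of 8 aldehyde dehydrogenase sequences past the filter, 3 were called higher in ovule and 3 in leaf. Some enzymes of this name can oxidise acetaldehyde to acetate. The list was 7.69-fold higher in ovule in sum (6.76 to 8.76). Nearly all of this came from Unigene17127, with 2173 and 243 reads, and without it 25 and 22 reads remained. The deposited terms of Unigene17127 name 1-pyrroline-5-carboxylate dehydrogenase activity and proline breakdown beside NAD-dependent aldehyde dehydrogenase activity. Its role in acetaldehyde oxidation was not tested. The gluconeogenic enzymes differed. Cytosolic fructose-1,6-bisphosphatase, which reverses the phosphofructokinase step, had 64 and 108 reads, 1.82-fold higher in leaf (1.32 to 2.52), with CL3431.Contig2 at 40 and 57. Phosphoenolpyruvate carboxykinase (Unigene18137) had 513 and 265 reads, 1.79-fold more abundant in ovule (1.54 to 2.09). In contrast, 5 of the 6 sequences of that list were called higher in leaf, on at most 12 reads in a library. None of those calls had a counting interval that excluded 1. Summed without Unigene18137, the list had 6 and 26 reads, 4.68-fold higher in leaf (1.88 to 13.9). A RAP2-12-like factor (Unigene13832), of the ethylene response group that in Arabidopsis switches on fermentation genes under low oxygen, had 63 and 10 reads, 5.84-fold more abundant in ovule (2.97 to 12.8).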

How the data were processed

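Messenger RNA was sequenced from ovules and leaves, 1 library per tissue. The deposited tables hold, per the file headers, the uniquely mapped read count of every reference sequence, its length, coverage as a percent of bases read, and RPKM, which is reads per 1000 bases and per 1000000 uniquely mapped reads. Aligner, assembler and annotation thresholds: not given in the sources used here. Checked on both tables, reads summed to the header total and RPKM equalled reads over length and total to a relative tolerance of 1e-06. The tables were joined by identifier, and a sequence absent from 1 table had 0 reads there.

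Members were chosen by description, and lists were written with earlier results of these data known. The log2 ratio used a pseudocount of 0.5 on sequences whose RPKM reached 1 in either library, and a call needed an absolute ratio of at least 1. Intervals on ratios and shares of reads are exact Clopper-Pearson intervals at 95%. Where 1 library had 0 reads, the fold was taken against 3 reads. Intervals and floors cover counting error only. With 1 library per tissue no test was possible, so none was run. The named genes were the 2 most-read members per enzyme step, the largest called member in each direction with at least 20 reads, and the most-read sequence of each list of other pathway genes. Other names were chosen after their values were seen. The set found by gene ontology function term, and the most-read sequences named in it, were added after seeing the data. The ratio and interval code was tested on simulated data. Tools were Python 3.11.15, pandas 2.3.3, SciPy 1.17.1, and edgeR 4.0.16 in R 4.3.3 for the TMM scaling factors alone. Alternatives covered pseudocount, expression filter, scaling, call rule and membership.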

Additional observations from a re-analysis of the deposited data

How the results depend on the processing

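The median over all sequences, a log2 ratio of -0.10, became -0.24 with TMM and -0.25 with TPM scaling, so member ratios near 0 carry no direction. Under TMM the summed ovule excess of the members was 1.795-fold and under TPM 1.78-fold. It was 1.55-fold without the most-read member, and 1.57-fold without the 2 members whose component names plastid, an alternative chosen after seeing the data. Calls toward ovule went from 10 of 26 members to 5 of 15 at 20 or more reads. They were 6 of 26 with a counting interval that excludes 1. Over all sequences those settings gave 33.9% and 17.3%. Calls toward leaf went from 5 of 26 to 3 of 26 with a pseudocount of 1 and with such an interval. They were 3 of 17 at an RPKM of at least 5 and 2 of 15 at 20 or more reads. With values summed per description they were 2 of 19. Over all sequences the leaf shares were 20.7% at 20 or more reads and 13.6% with such an interval. Fewer members were tested in some settings, so the counts do not share 1 base. Over all alternatives run, ovule calls ranged from 5 to 10, leaf calls from 2 to 5, and the median log2 ratio from 0.35 to 0.77. As a ratio of ovule over leaf, alcohol dehydrogenase turned to 0.6125 without its most-read member, and glyceraldehyde-3-phosphate dehydrogenase was 0.116 among sequences with a chloroplast component. The cause was not tested. With 17 of 32 members under 20 reads, depth limits most single ratios. No paired analysis was possible because each tissue had 1 library.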
